A study of Mus musculus with 6 samples.

Results

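The genes described here encode the heat shock proteins and their DnaJ co-chaperones, measured in the spinal cord of Dhtkd1 null and wild-type mice. Probes were taken by gene name: Cryab, and every name that starts with Hspa, Hspb, Hspd, Hspe, Hsph, Hsp90 or Dnaj. This gave 144 of the 41174 non-control probes of the array, which carry 75 of its 27344 gene names. The rule uses names alone, but it was set with earlier results of these data known. Of the 144 probes, 139 were well above the local background on at least 3 of the 6 arrays. Thus 73 of the 75 genes were tested among 21439 genes in all. The untested genes are Dnajc22, whose probe was above background on 0 null and 2 wild-type arrays, and Dnajb7, whose probe was above background on no array.

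The 6 samples are spinal cords of male C57BL/6 mice aged 8 weeks, 3 labelled Dhtkd1 null and 3 labelled wild-type, each on 1 single-colour Agilent whole-genome array. Dhtkd1 is a gene for a mitochondrial enzyme component that acts late in lysine breakdown, and the human gene has been linked to an inherited axonal neuropathy. The labels do not state which stretch of the gene was removed, nor that the replicates of a genotype are separate animals, so every p-value rests on the spread of these labelled samples, which may be partly technical. Spinal cord is a bulk tissue, and fewer cells of a type cannot be told apart from less RNA per cell.

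Signals are given as the log2 of the scanner's processed signal minus the 75th percentile of that array, so that 0 is a signal equal to that percentile, and a lone signal compares arrays for 1 probe, not 1 gene with another. Array values are listed for replicates 1, 2 and 3 in that order. Differences are Dhtkd1 null minus wild-type, tested with limma over all 21439 genes, and "adjusted" means Benjamini-Hochberg adjustment over those genes. The 75th percentile of the arrays lay between 950 and 1055 units, between 78.4% and 82.0% of spots were well above background, and arrays correlated with each other at 0.983 to 0.991 across genes. The probe that represents Dhtkd1 gave -4.33, -3.43 and -4.03 on the null arrays, against -2.46, -3.16 and -2.97 on the wild-type arrays, a difference of -1.07 on the log2 scale. A slide holds 4 arrays, and here slide 1 carried null replicates 1, 2 and 3 with wild-type replicate 2, while slide 2 carried wild-type replicates 1 and 3. With slide as a fixed block a difference is therefore that of the null arrays from wild-type replicate 2 alone. Wild-type replicates 1 and 3 then add only to the estimate of spread.

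Heat shock proteins are chaperones that keep other proteins folded, refold them or hand them over for breakdown. Hsp70 proteins bind exposed stretches of unfolded protein in a cycle driven by ATP, DnaJ proteins bring them their clients and start ATP breakdown, and Hsp110 proteins release the spent nucleotide. Hsp90 proteins finish the folding of kinases and receptors, the chaperonin folds proteins inside mitochondria, and small heat shock proteins hold unfolding proteins without using ATP. A subset is switched on by heat or other protein-damaging stress through the transcription factor Hsf1, which binds heat shock elements made of repeated nGAAn units in alternating orientation. In the nervous system several of these proteins are also made without stress, Cryab in oligodendrocytes and Hspa8 in neurons among them, and the human genes HSPB1, HSPB3, HSPB8 and DNAJB2 are linked to inherited motor neuropathies.

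Cores of the heat shock element were found in the promoters of several members. Those of Hspa1a, Hspa1b and Hspb1 are shown because their spread between cords is described below. Those of Hsph1, Hspd1 and Dnaja4 are shown because these genes carry such cores with other patterns of signal. The promoters are RefSeq sequences of build GRCm38.p6, written 5′ to 3′ on the strand of the gene, with element cores of the form GAANNTTC or TTCNNGAA in capitals. Hspa1a and Hspa1b, the neighbouring stress-inducible Hsp70 genes of chromosome 17, differ at 3 of the 250 bases before their start sites (chr17:34972157-34972406 and chr17:34959239-34959488, both minus strand), and each has a core that begins at position -104, counted from the start site.
Hspa1a promoter: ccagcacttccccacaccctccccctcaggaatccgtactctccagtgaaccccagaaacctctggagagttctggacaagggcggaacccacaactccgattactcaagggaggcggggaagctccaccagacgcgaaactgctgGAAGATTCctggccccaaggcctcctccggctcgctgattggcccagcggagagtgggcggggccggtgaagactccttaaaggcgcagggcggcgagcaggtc
Hspa1b promoter: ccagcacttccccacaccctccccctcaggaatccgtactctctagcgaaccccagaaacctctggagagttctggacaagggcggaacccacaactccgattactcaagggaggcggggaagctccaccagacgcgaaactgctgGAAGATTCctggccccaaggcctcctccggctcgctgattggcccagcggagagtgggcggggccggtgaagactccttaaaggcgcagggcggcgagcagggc

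Shorter stretches show the cores of 4 other members. The Hspb1 stretch is chr5:135887782-135887849 on the plus strand, with cores at positions -117 and -97, and the Hsph1 stretch is chr5:149636342-149636389 on the minus strand. The Hspd1 stretch, chr1:55088039-55088096 on the minus strand, holds 3 overlapping cores and lies between the divergent Hspd1 and Hspe1 genes, so that both share it. The Dnaja4 stretch is chr9:54699449-54699534 on the plus strand, with cores at positions -90 and -52.
Hspb1 promoter: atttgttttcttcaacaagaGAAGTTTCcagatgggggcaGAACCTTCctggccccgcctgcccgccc
Hsph1 promoter: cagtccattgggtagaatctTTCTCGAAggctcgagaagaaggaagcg
Hspd1 and Hspe1 promoter: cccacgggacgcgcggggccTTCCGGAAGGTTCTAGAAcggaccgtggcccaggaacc
Dnaja4 promoter: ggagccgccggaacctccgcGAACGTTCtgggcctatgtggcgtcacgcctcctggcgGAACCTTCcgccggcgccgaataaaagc

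RefSeq windows from 250 bases before to 50 bases after the start were found for 60 of the 75 member genes. Either core, each of which is its own reverse complement, was present for 16 of these 60 genes (26.7%), against 17.0% of the 27025 genes with a window. Among the 11 heat-inducible members with a window, 9 held a core. Dnajb1 had a window without a core, and the only Hspb8 core began at position 2, after the start site. The CCACG part of the endoplasmic reticulum stress element, searched on both strands, was present for 33 of the 60 (55%), against 35.5% of all genes with a window, Hspa5, Hsp90b1, Dnajb9, Dnajb11 and Dnajc3 included. A match describes the letters of the window and is not a bound site.

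Across the 73 tested genes, no member passed an adjusted p of 0.05 in limma, the lowest adjusted p being 0.412, and no gene of the whole array did (0% in either direction). At an unadjusted p under 0.05, 2 members were lower in null cords, Cryab and Dnaja4, where the background share of all genes was 3.01%. No member was higher at that threshold, where the background share was 5.92%. The members' median difference was 0.02 on the log2 scale, with 38 genes above and 35 below 0, and that of all genes tested was also 0.02. The arrays of the genotypes did not overlap for 1 member that was higher in null cords, Dnajb5, against a background of 9.66%, and for 4 that were lower, Cryab, Dnajc8, Dnajc13 and Dnajc27, against a background of 5.18%. The median and the lower calls were thus close to the background of the array, while fewer members than the background share were higher or lay wholly above the wild-type arrays.

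**Figure D1:**
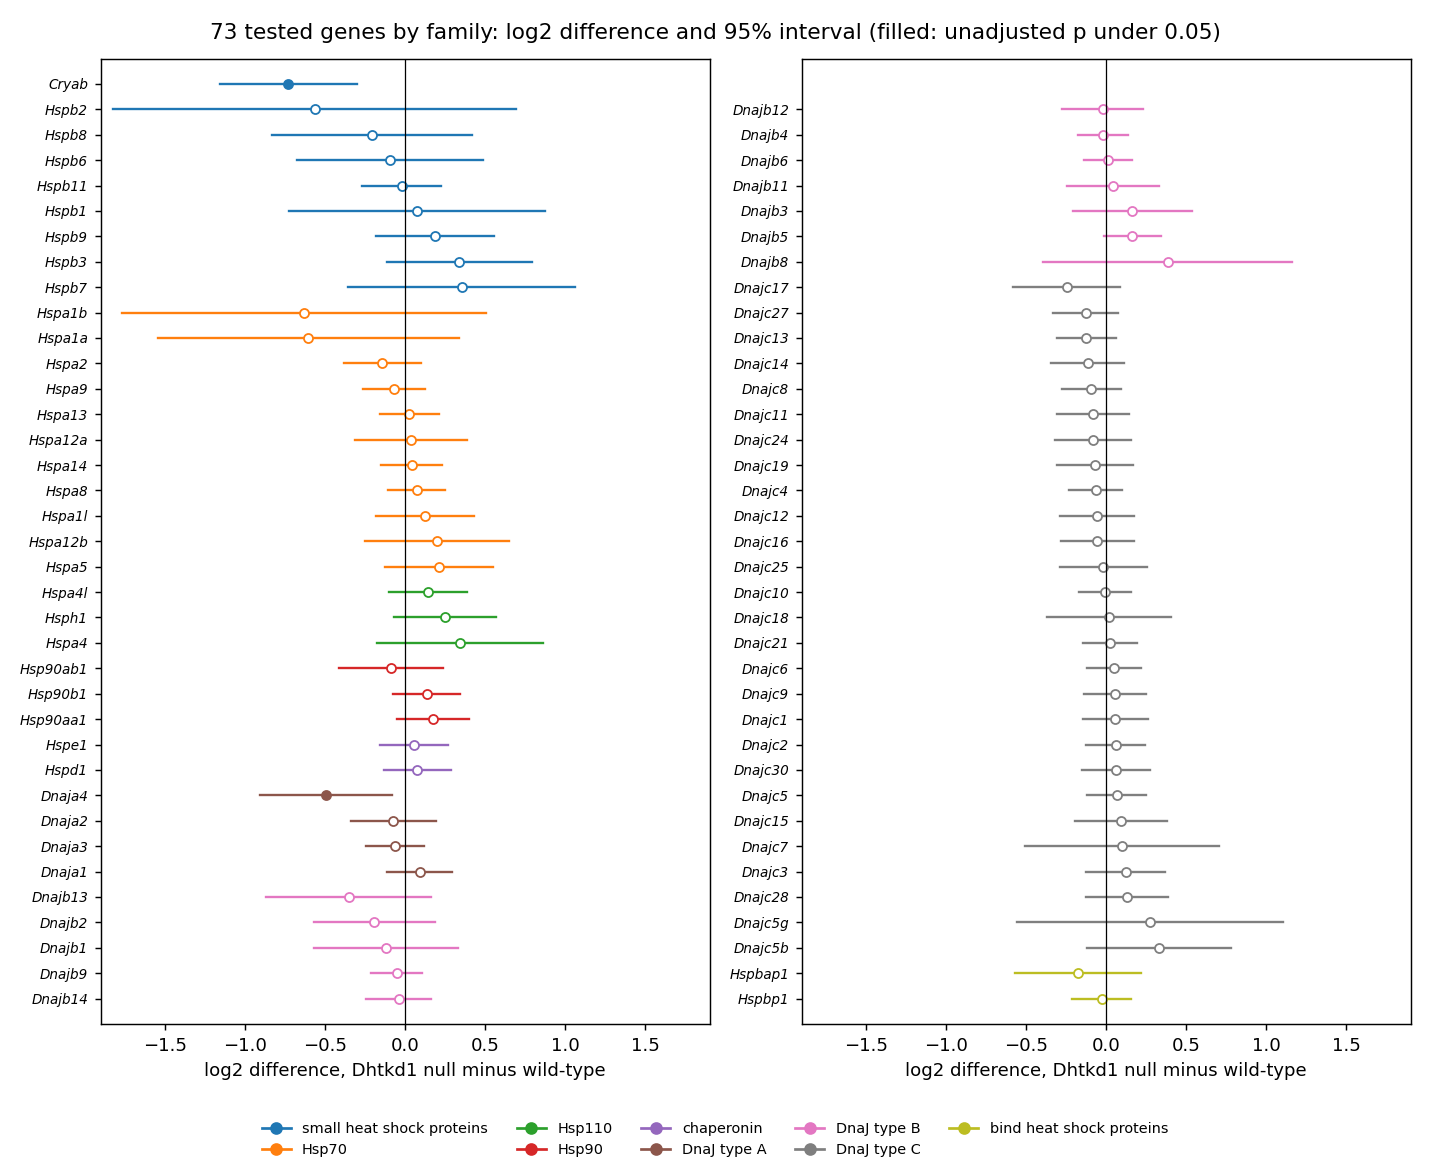
Log2 difference, Dhtkd1 null minus wild-type (x axis), of the 73 tested genes (y axis), coloured by family, with the 95% interval of limma as a line and a filled point where the unadjusted p is under 0.05. Cryab at -0.73 and Dnaja4 at -0.50 are the filled points, and the intervals are wide for Hspb2, Hspa1a and Hspa1b.

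Cryab encodes αB-crystallin, a small heat shock protein abundant in oligodendrocytes and also made in astrocytes and muscle. Its leading probe, at chr9:50564440-50564499 on the plus strand of build mm9, is the following 60-base sequence, shown because this gene carries the largest difference of the family.
Cryab probe: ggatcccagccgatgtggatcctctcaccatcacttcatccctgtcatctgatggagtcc

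On the null arrays Cryab gave 3.40, 3.95 and 3.40, against 4.17, 4.36 and 4.41 on the wild-type arrays. All 3 null cords lay below all 3 wild-type cords, with null replicate 2 nearest to the wild-type values. The difference was -0.73 on the log2 scale (SE 0.17, 95% interval -1.16 to -0.30), a signal 1.66-fold lower in null cords, at an unadjusted p under 0.05 and a limma adjusted p of 0.412. A second probe farther upstream, at chr9:50561281-50561340, gave 0.27, 0.55 and 0.06 on the null arrays, against 0.79, 1.09 and 1.00 on the wild-type arrays. It separated the genotypes in the same way, with a difference of -0.67 (SE 0.15, limma adjusted p = 0.461). On slide 1 alone, which leaves wild-type replicate 2 as the only wild-type array, the leading probe differed by -0.77, a value whose test has its spread from the null arrays alone. With slide as a fixed block the difference is the same one, again against wild-type replicate 2 alone, because slide 2 held no null array. Wild-type replicates 1 and 3 then add only to the spread, and the leading probe was at an unadjusted p under 0.05 (limma adjusted p = 0.592).

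Oligodendrocyte markers are given beside Cryab. Of 12 such markers, 10 had a negative difference. Their median difference was -0.30, against 0.02 for all genes tested, and they ran from -0.71 (Opalin) to 0.30 (Mobp). Sox10 and Aspa, 2 of the 12, were lower in null cords at an unadjusted limma p under 0.05, against a background of 3.01%. Sox10 differed by -0.46, Aspa by -0.48 and the abundant myelin gene Mbp by -0.05. The mean deviation of the 12 markers from their own 6-array means ranged from -0.21 to 0.03 over the null arrays and from -0.19 to 0.36 over the wild-type arrays, and all 12 were well above background on all arrays. For 2 of the 12, Sox10 and Aspa, all null arrays lay below all wild-type arrays, as for Cryab, against a background of 5.18%. The order of the 12-marker mean over the arrays was not that of Cryab. Null replicate 1 had the highest marker mean of the null arrays. Its Cryab signal was the lowest on the leading probe only by a small margin (3.398 against 3.404 for null replicate 3). On the second Cryab probe null replicate 3 was lowest (0.06 against 0.27 for null replicate 1). Wild-type replicate 1 had a marker mean among those of the null arrays and a Cryab signal above all of them on both probes. Skeletal muscle, another source of Cryab RNA, varied more: its 12 markers averaged 0.12, 0.41 and 0.31 on the null arrays, against -0.40, 1.07 and -1.51 on the wild-type arrays. The wild-type cord with the least muscle signal, replicate 3, had the highest Cryab signal on the leading probe (4.41 against 4.36 for replicate 2). On the second Cryab probe wild-type replicate 2, with the most muscle signal, was the highest (1.09 against 1.00 for replicate 3). The 8 astrocyte markers had 5 negative and 3 positive differences, with a median of -0.11 and a range of -0.44 (Gfap) to 0.12 (Aldh1l1). They averaged 0.08, -0.08 and -0.17 on the null arrays, against -0.09, 0.17 and 0.08 on the wild-type arrays. The part of oligodendrocytes, muscle or astrocytes in the Cryab difference was not tested.

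Hspb2, a small heat shock protein of muscle whose gene lies head to head with Cryab, gave -1.35, -0.13 and 0.09 on the null arrays, against 0.68, -0.70 and 0.33 on the wild-type arrays. The genotypes overlapped, and the difference of -0.56 was close to its SE of 0.51 (limma adjusted p = 0.763). Hspb6 and Hspb7, also muscle-enriched members, differed by -0.10 and 0.35, the second of which turned to -0.18 with slide as a fixed block. Hspb7 gave -5.69, -5.00 and -5.28 on the null arrays, against -5.86, -5.14 and -6.02 on the wild-type arrays, with overlap. Hspb3, another muscle member, differed by 0.34 and the testis member Hspb9 by 0.19. Hspb11, which despite its name is a subunit of the intraflagellar transport machinery, differed by -0.02. Of the 9 genes grouped by name as small heat shock proteins, Hspb11 included, 4 had a positive and 5 a negative difference. Cryab was the only one of them at an unadjusted p under 0.05.

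Hspb1, the stress-inducible small heat shock protein Hsp25 of mouse, gave 2.83, 2.99 and 3.36 on the null arrays, against 2.29, 3.25 and 3.41 on the wild-type arrays. Wild-type replicate 1 was the lowest of the 6 arrays and wild-type replicate 3 the highest, so the null values lay inside the wild-type range. The wild-type arrays spanned 2.17-fold and the null arrays 1.44-fold, and the genotype difference of 0.07 (SE 0.32), which turned to -0.20 with slide as a fixed block, was well within that spread. Hspb8, which works with the co-chaperone Bag3 in selective autophagy, gave 1.57, 1.40 and 1.599 on the null arrays, against 1.155, 1.97 and 2.07 on the wild-type arrays. The pattern was again a low wild-type replicate 1 with the null cords in between, over a 1.147-fold range in null and a 1.88-fold range in wild-type cords.

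Among the Hsp70 genes, Hspa1a gave 0.91, 1.18 and 1.56 on the null arrays, against 1.04, 2.00 and 2.43 on the wild-type arrays. Hspa1b gave -2.20, -1.88 and -1.48 on the null arrays, against -2.21, -0.95 and -0.51 on the wild-type arrays. For both genes wild-type replicate 1 lay close to the lowest null array, and wild-type replicates 2 and 3 lay above every null array. The differences were -0.60 for Hspa1a (SE 0.38, limma adjusted p = 0.670) and -0.63 for Hspa1b (SE 0.46, limma adjusted p = 0.712). The range over wild-type cords was 2.63-fold for Hspa1a and 3.25-fold for Hspa1b, against 1.58-fold and 1.64-fold over null cords. With slide as a fixed block the differences were -0.78 and -0.90, with limma adjusted p-values of 0.791 and 0.796. A second Hspa1a probe, which overlaps the leading one, gave a difference of -0.53, and a dim second Hspa1b probe gave -0.39.

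Hspa1a and Hspa1b encode nearly the same protein, and signals of their probes may share transcripts, which was not tested. The leading Hspa1b probe (mm9 chr17:35094200-35094259, minus strand) is printed beside probes for the testis-enriched relatives Hspa1l (chr17:35115629-35115688, plus strand) and Hspa2 (chr12:77507203-77507262, plus strand), because all of them lie in the same coding stretch. Capitals mark bases of the relatives that differ from the Hspa1b probe where the probes align. Over the aligned bases Hspa1l matched at 43 of 58 (74.1%) and Hspa2 at 31 of 40 (77.5%).
Hspa1b probe: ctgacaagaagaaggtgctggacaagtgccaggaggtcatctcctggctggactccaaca
Hspa1l probe: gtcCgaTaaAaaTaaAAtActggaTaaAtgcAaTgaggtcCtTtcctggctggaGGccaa
Hspa2 probe: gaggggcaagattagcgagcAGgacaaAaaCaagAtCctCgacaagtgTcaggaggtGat

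Neither relative was at an unadjusted p under 0.05. Hspa1l differed by 0.12 and the leading Hspa2 probe, at another position than the one printed, by -0.14, with limma adjusted p-values of 0.785 and 0.698. Hspa8, the constitutive Hsp70 of the cytosol that also uncoats clathrin vesicles, gave 6.09, 6.21 and 6.23 on the null arrays, against 6.07, 6.10 and 6.15 on the wild-type arrays. Its difference was 0.07 with a 95% interval of -0.11 to 0.25. Hspa5 (BiP), the Hsp70 of the endoplasmic reticulum and a target of the unfolded protein response, gave 3.86, 4.07 and 4.28 on the null arrays, against 3.71, 3.87 and 3.996 on the wild-type arrays. The null values ran higher but overlapped with the wild-type ones, and the difference was 0.21 (SE 0.14, limma adjusted p = 0.675). Hspa9 (mortalin), the Hsp70 of the mitochondrial matrix, gave 3.31, 3.14 and 3.19 on the null arrays, against 3.24, 3.35 and 3.26 on the wild-type arrays, a difference of -0.07. The divergent members Hspa12a, Hspa12b, Hspa13 and Hspa14 differed by 0.03 to 0.20. Over the 11 Hsp70 genes, 7 differences were positive and 4 negative.

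**Figure D2:**
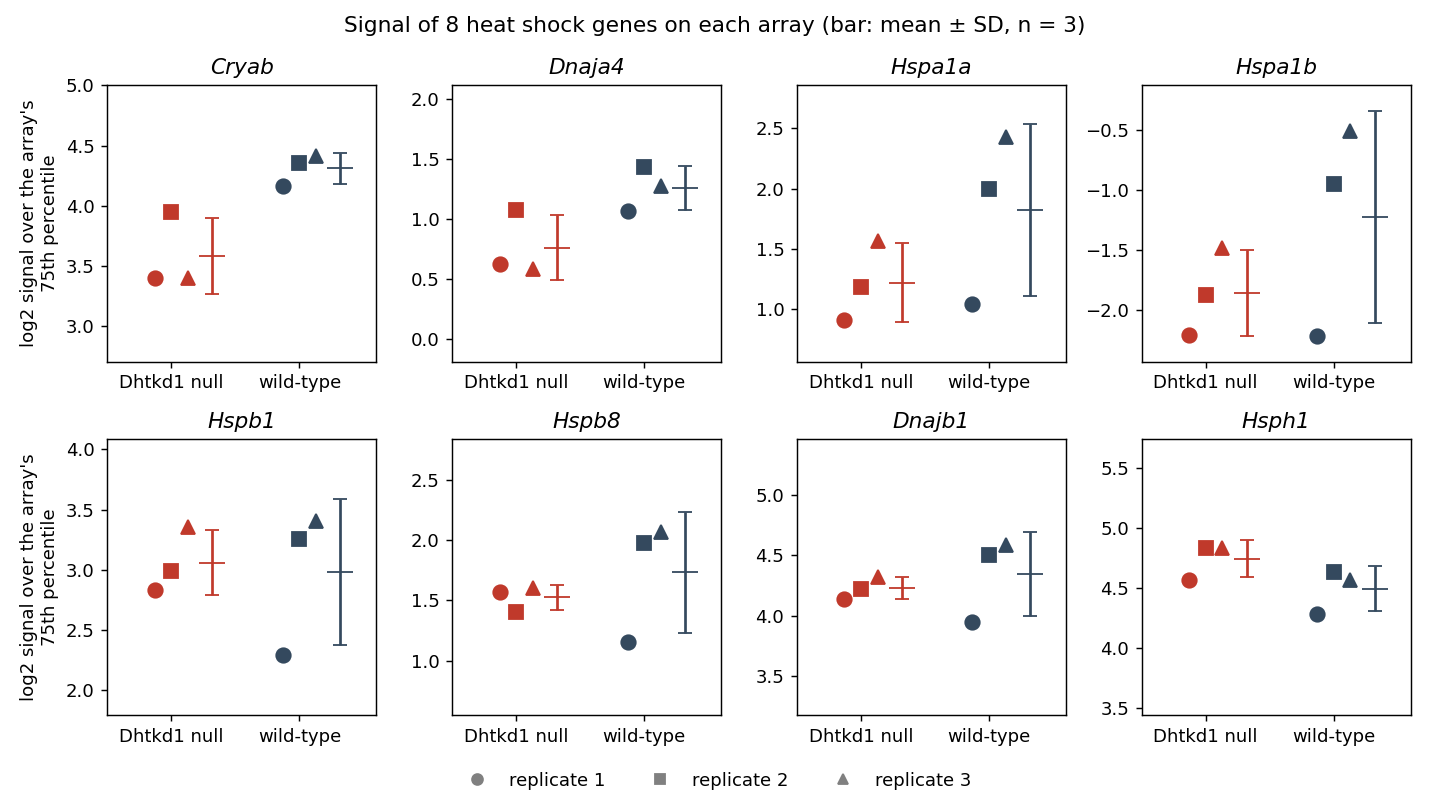
Signal of 8 members on each array (y axis, log2 over the array's 75th percentile, each panel spanning the same number of log2 units), with Dhtkd1 null arrays in red and wild-type arrays in dark blue, symbols for replicates 1 to 3 and a bar for the mean ± SD (n = 3). Cryab separates the genotypes, and wild-type replicate 1 (circle) lies below wild-type replicates 2 and 3 for Hspa1a, Hspa1b, Hspb1, Hspb8 and Dnajb1.

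The Hsp110 genes, which encode nucleotide exchange factors of Hsp70, all had positive differences. Hsph1 gave 4.57, 4.83 and 4.83 on the null arrays, against 4.28, 4.64 and 4.56 on the wild-type arrays. Only null replicate 1 overlapped with the wild-type values, and the difference was 0.25 (SE 0.13, 95% interval -0.07 to 0.57, limma adjusted p = 0.618). Hspa4 gave 2.83, 3.20 and 3.05 on the null arrays, against 2.83, 2.98 and 2.26 on the wild-type arrays. Wild-type replicate 3 was the lowest array, the difference was 0.34 (SE 0.21), and the 4 probes of the gene gave differences of -0.14 to 0.34. Hspa4l differed by 0.14.

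Of the Hsp90 genes, inducible Hsp90aa1 gave 6.03, 6.15 and 6.15 on the null arrays, against 5.88, 6.09 and 5.85 on the wild-type arrays. The groups overlapped through wild-type replicate 2, and the difference was 0.17 (SE 0.09, limma adjusted p = 0.624). Constitutive Hsp90ab1 gave 4.74, 4.77 and 4.78 on the null arrays, against 4.65, 4.79 and 5.12 on the wild-type arrays, a difference of -0.09, while its second probe gave 0.09. Hsp90b1 (Grp94), the Hsp90 of the endoplasmic reticulum, gave 4.78, 4.91 and 4.98 on the null arrays, against 4.67, 4.78 and 4.81 on the wild-type arrays, a difference of 0.14 (SE 0.08, limma adjusted p = 0.669).

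The chaperonin folds imported proteins in the mitochondrial matrix, the compartment in which Dhtkd1 protein also works. Hspd1 (Hsp60) gave 4.69, 4.73 and 4.73 on the null arrays, against 4.59, 4.78 and 4.55 on the wild-type arrays. Its partner Hspe1 (Hsp10), driven from the shared promoter printed above, gave 3.23, 3.24 and 3.33 on the null arrays, against 3.19, 3.34 and 3.11 on the wild-type arrays. In both genes the null arrays lay within the wild-type range. The differences were 0.08 (95% interval -0.13 to 0.29) and 0.05 (95% interval -0.16 to 0.26), and turned to -0.06 and -0.07 with slide as a fixed block. The 10 tested mitochondrial members, which include the import motor proteins Dnajc15 and Dnajc19 and the matrix co-chaperone Dnaja3, had 5 positive and 5 negative differences. Their median was -0.01, their range -0.08 to 0.13 (Dnajc28), and none was at an unadjusted p under 0.05 on its leading probe. Other Dnajc28 probes differed by 0.22 and 0.17 in the same direction, with all null arrays above all wild-type arrays. The first of these was at an unadjusted p under 0.05 (limma adjusted p = 0.591).

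Members of the endoplasmic reticulum were followed as a list of 14, of which 13 were tested. None was at an unadjusted p under 0.05, 7 differences were positive and 6 negative, and the median was 0.02, as for all genes. The list ran from -0.05 for Dnajb9 (ERdj4), a sensitive target of the unfolded protein response, to 0.21 for Hspa5. The co-chaperones Dnajb11 (ERdj3), Dnajc3 (p58) and Dnajc10 (ERdj5) differed by 0.04, 0.12 and -0.01. Dnajc1, a DnaJ protein of the same membrane, gave 1.33, 1.47 and 1.55 on the null arrays, against 1.39, 1.35 and 1.43 on the wild-type arrays, a difference of 0.06. A second Dnajc1 probe gave -0.13, -0.03 and -0.01 on the null arrays, against -0.26, -0.25 and -0.25 on the wild-type arrays, a difference of 0.20 at an unadjusted p under 0.05 (limma adjusted p = 0.591), and the third gave -0.04. The probes of this gene thus disagreed.

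Dnaja4 is a type A DnaJ protein known as a target of the sterol-sensing factor SREBP, and its promoter also carries the heat shock cores printed above. Its leading probe, at chr9:54563687-54563746 (mm9), gave 0.63, 1.08 and 0.58 on the null arrays, against 1.07, 1.43 and 1.27 on the wild-type arrays. Null replicate 2 lay just above wild-type replicate 1, so that the groups met. The difference was -0.50 (SE 0.17, 95% interval -0.91 to -0.08), a signal 1.41-fold lower in null cords, at an unadjusted p under 0.05 and a limma adjusted p of 0.520. The other Dnaja4 probe, which was dimmer and lies farther upstream, gave a difference of 0.06 (limma adjusted p = 0.942), and with both probes averaged the difference was -0.22 (limma adjusted p = 0.708). With slide as a fixed block the leading probe differed by -0.67 and stayed at an unadjusted p under 0.05 (limma adjusted p = 0.598), and on slide 1 alone, with 1 wild-type array, it differed by the same amount. With 1 array fewer the difference of the leading probe stayed between -0.65 and -0.41. It was not at an unadjusted p under 0.05 without null replicate 1 (-0.43), null replicate 3 (-0.41), wild-type replicate 2 (-0.41) or wild-type replicate 3 (-0.49), fits with fewer arrays. The sterol enzyme gene Mvd gave 0.42, -0.03 and -0.12 on the null arrays, against 0.42, 0.97 and 0.77 on the wild-type arrays, and any relation of the 2 genes was not tested.

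The other type A genes, Dnaja1, Dnaja2 and Dnaja3, are general partners of Hsp70. Dnaja1, the heat-inducible one of the cytosol, gave 3.65, 3.73 and 3.69 on the null arrays, against 3.51, 3.73 and 3.56 on the wild-type arrays, a difference of 0.09 that turned to -0.04 with slide as a fixed block. Dnaja2 and Dnaja3 differed by -0.07 and -0.06.

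Among the type B genes, Dnajb1 (Hsp40), the classical heat-inducible partner of Hspa1a, gave 4.14, 4.23 and 4.32 on the null arrays, against 3.95, 4.50 and 4.59 on the wild-type arrays. It had the layout of Hspb8: wild-type replicate 1 lowest, wild-type replicates 2 and 3 highest and the null cords in between. Hspb1 shared the low wild-type replicate 1, but its null replicate 3 (3.36) lay above wild-type replicate 2 (3.25). The second Dnajb1 probe gave -0.41, -0.28 and -0.18 on the null arrays, against -0.52, 0.10 and -0.17 on the wild-type arrays. Wild-type replicate 1 was again the lowest. The Dnajb1 difference between genotypes was -0.12 on the leading probe (SE 0.18, limma adjusted p = 0.855). Dnajb5, a DnaJ protein of brain and muscle, gave -1.74, -1.76 and -1.69 on the null arrays, against -1.91, -1.81 and -1.97 on the wild-type arrays. The null arrays were all higher, by a difference of 0.16 (SE 0.07, limma adjusted p = 0.573).

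The other Dnajb5 probes differed by 0.23 and 0.32 in the same direction, both at an unadjusted p under 0.05, with limma adjusted p-values of 0.597 and 0.543. In the fit of every kept probe, 4 member probes were higher and 3 lower at an unadjusted p under 0.05, against a background of 8.19% of 33191 probes in either direction. The neuronal co-chaperone Dnajb2, which sorts ubiquitinated clients, differed by -0.19, and Dnajb6, a suppressor of protein aggregation, by 0.01 with an interval of -0.14 to 0.16. Dnajb8, a testis member, gave -6.24, -5.93 and -6.01 on the null arrays, against -7.09, -5.85 and -6.39 on the wild-type arrays, near the level at which a probe counts as above background and above it on 2 of the 3 wild-type arrays. Its difference of 0.38, the largest positive one of the family, had a limma adjusted p of 0.743 and turned to -0.21 with slide as a fixed block. Over the 12 tested type B genes, 5 differences were positive and 7 negative.

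The 27 tested type C genes, a mixed group joined only by the J domain, had 14 positive and 13 negative differences. They ran from -0.25 (Dnajc17) to 0.33 (Dnajc5b, above background on 2 of the 3 null arrays). None was at an unadjusted p under 0.05 on its leading probe, while the probes of Dnajc1 and Dnajc28 given above were. Synaptic Dnajc5 (cysteine string protein), which keeps vesicle fusion proteins folded, gave 4.81, 4.87 and 4.76 on the null arrays, against 4.81, 4.78 and 4.66 on the wild-type arrays. Dnajc6 (auxilin), the neuronal clathrin uncoating factor, differed by 0.05 with an interval of -0.12 to 0.22. Dnajc13, an endosomal sorting protein, gave -0.32, -0.45 and -0.39 on the null arrays, against -0.31, -0.30 and -0.19 on the wild-type arrays, apart by a small margin and by -0.12 on average. The splicing-associated Dnajc8 and the Rab-like Dnajc27 were also lower on all null arrays, with differences of -0.09 and -0.13 and limma adjusted p-values of 0.742 and 0.680. Hspbp1 and Hspbap1, which bind Hsp70 and Hspb1 and were taken by their names, differed by -0.03 and -0.18.

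The clearest pattern of the inducible genes lay between wild-type cords. Of 15 members known as heat-inducible in many cell types (Hspa1a, Hspa1b, Hspa8, Hspa4l, Hsph1, Hsp90aa1, Hsp90ab1, Hspd1, Hspe1, Hspb1, Hspb8, Cryab, Dnaja1, Dnajb1 and Dnajb4), 11 (73.3%) had their lowest wild-type signal in replicate 1, against 27.9% of all genes tested. The share was 37.9% of the 58 other members and 49.3% of the 75 pathway genes outside the family described below. Among the cell type marker lists it ran from 0% (skeletal muscle and Schwann cell among them) to 88.9% for microglia and 100% for oligodendrocytes. A low wild-type replicate 1 was thus not particular to the inducible members. Wild-type replicate 1 was the lowest of all 6 arrays for 9 of the 15 (60%), against 13.2% of all genes, and wild-type replicate 3 the highest for 8 (53.3%), against 15.2%. Wild-type replicate 3 was also the lowest of the 6 for 4 of the 15 (26.7%), against 32.1% of all genes. The SD over wild-type cords exceeded that over null cords for 13 of the 15 (86.7%), against 63.9% of all genes. The mean deviation of the 15 genes from their own 6-array means was -0.16, -0.03 and 0.04 on the null arrays, against -0.23, 0.17 and 0.21 on the wild-type arrays. The same mean over the 58 other members was -0.0016, 0.02 and -0.0031 on the null arrays, against -0.03, 0.06 and -0.05 on the wild-type arrays. The 15 were listed by name as targets of Hsf1 in many cell types, and Hspa8 and Hsp90ab1, called constitutive above, are among them. All of these counts describe the 6 cords and carry no test, since the genes are not independent of each other.

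**Figure D3:**
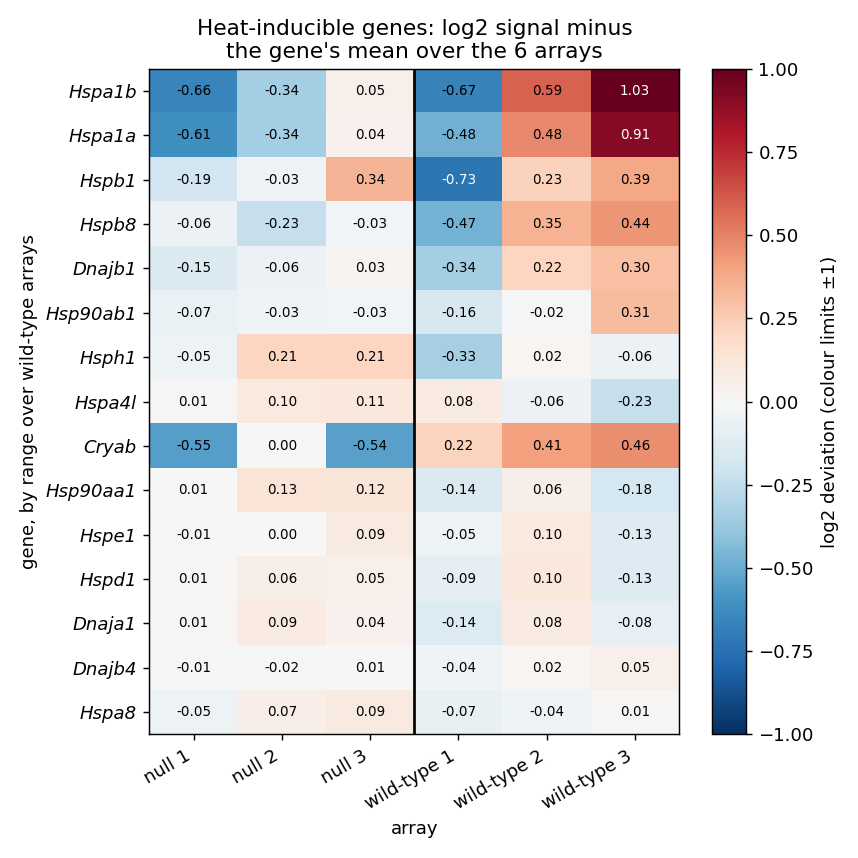
Log2 signal of the 15 heat-inducible members (y axis, ordered by their range over wild-type arrays) on each array (x axis) after subtraction of the gene's 6-array mean, red above and blue below it. Hspa1b, Hspa1a, Hspb1, Hspb8 and Dnajb1 are blue in wild-type 1 and red in wild-type 2 and 3, while Cryab is red in all 3 wild-type arrays.

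Wild-type replicates 1 and 3, which shared slide 2, were the lowest and the highest wild-type array for Hspa1a, Hspa1b, Hspb1, Hspb8 and Dnajb1, but were both below wild-type replicate 2 for Hsp90aa1, Hspd1, Hspe1 and Dnaja1. The part of the slide was not tested. Slide 2 carried no null array, so the values with slide as a fixed block set the null arrays against wild-type replicate 2 alone. Without wild-type replicate 1, 5 of the 15 were lower in null cords at an unadjusted limma p under 0.05: Hspa1b at -1.12, Hspa1a at -0.997, Cryab at -0.80, Hspb8 at -0.50 and Dnajb1 at -0.32. Over all 73 members 8 were lower and 0 higher in that comparison, against backgrounds of 4.46% lower and 8.96% higher, and the other 3 were Dnaja4, Dnajb2 and Hspbap1. The lowest limma adjusted p of these 8 was 0.257, for Hspb8. With wild-type replicate 1 in place, only Cryab of the 15 was at that threshold, so whether Hspa1a, Hspa1b, Hspb8 and Dnajb1 passed it turned on 1 cord. Without wild-type replicate 2, by contrast, 6 members were higher, Hspb3, Hsp90aa1, Hspb9, Dnajb8, Hspb7 and Dnajb5, against a background of 6.48%, and 1 was lower, Cryab, against 2.44%.

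Cell type markers also varied between the cords. For 12 of the 12 oligodendrocyte markers wild-type replicate 1 was the lowest wild-type array, and the list averaged 0.03, -0.21 and -0.18 on the null arrays, against -0.19, 0.36 and 0.18 on the wild-type arrays, so that wild-type replicate 1 lay among the null arrays. Schwann cell markers averaged -1.35, 0.27 and -0.06 on the null arrays, against 1.93, -0.80 and 0.02 on the wild-type arrays, and wild-type replicate 1 was the highest array. The microglia markers had 4 of 9 genes higher in null cords at an unadjusted limma p under 0.05, against a background of 5.92%. These were Aif1, C1qa, C1qb and C1qc, each lowest in wild-type replicate 1, where the 9 markers averaged -0.45. Wild-type replicate 3 was the extreme array for others, the lowest for skeletal muscle (-1.51) and blood and marrow leukocyte markers (-0.89) and the highest for meningeal fibroblast markers (1.36). The part of cell content in the spread of the heat shock genes was not tested.

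**Figure D4:**
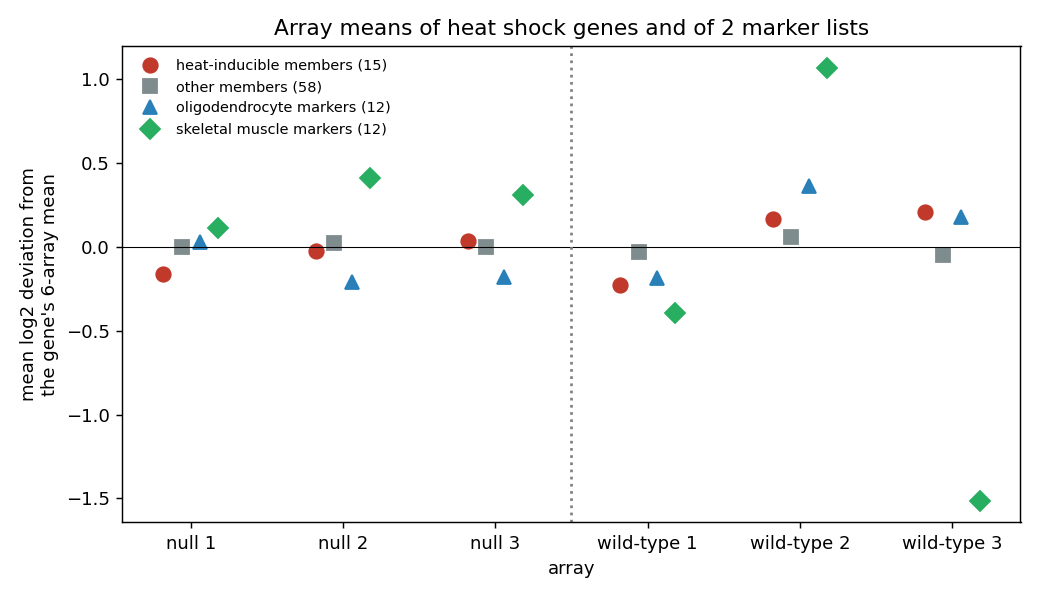
Mean log2 deviation from each gene's 6-array mean (y axis) on each array (x axis) for the 15 heat-inducible members, the 58 other members, 12 oligodendrocyte markers and 12 skeletal muscle markers. The inducible members are lowest in wild-type 1 at -0.23 and highest in wild-type 3 at 0.21, where the muscle markers are lowest at -1.51.

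Genes of the same pathway outside the family were followed as a list of 75, all tested, with Hsf1 itself, the Bag, Cct and prefoldin proteins and the Hsp90 co-chaperones. None was at an unadjusted p under 0.05, 43 differences were positive and 32 negative, and the median was 0.02. Hsf1 gave 3.24, 3.26 and 3.09 on the null arrays, against 3.41, 3.20 and 3.31 on the wild-type arrays, overlapping, with a difference of -0.11 (limma adjusted p = 0.742). Bag3, the inducible partner of Hspb8, gave 2.12, 2.04 and 2.29 on the null arrays, against 1.86, 2.501 and 2.24 on the wild-type arrays, with wild-type replicate 1 lowest as for Hspb8. The smallest p of the list belonged to Sdf2l1, an endoplasmic reticulum protein that works with Dnajb11, which gave -0.24, 0.24 and 0.33 on the null arrays, against -0.58, -0.24 and -0.11 on the wild-type arrays. Its difference of 0.42 had a limma adjusted p of 0.588, and the values overlapped.

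Where a gene had several probes they often did not point the same way. Of 42 members with more than 1 kept probe, 20 had the same sign in all probes and 22 did not, while 2, Dnaja4 and Dnajc1, had a probe at an unadjusted p under 0.05 beside one of the opposite sign. The members whose probes share sequence across genes are few: the longest run of identical bases between probes of different members was 13, between Hspa4 and Hspbap1, among the probes compared. Of 10 members made mostly in testis 9 were tested, with a median difference of 0.16, and Dnaja4 was the only one of them at an unadjusted p under 0.05.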

How the data were processed

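RNA of 6 cords, labelled with Cy3, was read on single-colour arrays with Agilent Feature Extraction 10.7.3.1, per the file headers, which give each spot's processed signal as a background-subtracted intensity. The authors also deposited a table of log2 values, used as an alternative. From the intensities, log2 signal minus each array's 75th percentile over 43379 non-control spots was computed, outlier spots were left out, spots of a probe were averaged, probes well above background on at least 3 arrays were kept, and the kept probe of highest mean stood for a gene name. Genotypes were compared with limma 3.58.1 in R 4.3.3 (2-sided, moderated over all genes, Benjamini-Hochberg). The fit was tested on simulated data. With 3 arrays a group, precision is limited by their number. An exact permutation test of 3 against 3 was not used. Positions of probes are those of the files (mm9), and promoters are RefSeq GRCm38.p6. Gene names were updated through accessions for 27668 probes, symbols for 5589 and synonyms for 471, and 7446 kept the file's name.

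Members, gene lists and tests were chosen with earlier results of these data known. Named with values on every array were the members at an unadjusted p under 0.05, the 3 largest differences in each direction, 15 inducible and housekeeping chaperones taken by name, and members whose probes disagreed. Genes named beyond these (such as Hspb8, Hspb2, Dnajb5, Dnajc5, Dnajc13, Mvd and Bag3) were chosen after their values were seen. Same-numbered arrays of the genotypes deviated from their group means with correlations of -0.02, -0.11 and 0.33, so the numbers were not taken as pairs.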

Additional observations from a re-analysis of the deposited data

How the results depend on the processing

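The limits are those of 3 arrays a genotype, of a slide that carried 2 of the 3 wild-type arrays and no null array, and of probes close to background for Dnajb8, Dnajc5b and Dnajc5g. No member passed an adjusted p of 0.05 in limma under any of the alternatives run. Of 379 values of the 20 genes named by rule under 19 alternatives, 361 kept their direction and 18 did not, and 11 of the 20 genes kept it throughout. Cryab was lower at an unadjusted p under 0.05 in all settings but slide 1 alone, where 1 wild-type array is assumed to vary like the null arrays, with differences of -0.91 to -0.64 as each array was left out.

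The count of members higher at an unadjusted p under 0.05, 0 as reported, was 1 with normexp background correction (background 5.26%). It was 1 with the mean of all kept probes (background 6.06%). Among probes fitted on their own it was 4, against 8.19% of all kept probes in either direction. It ranged from 0 to 6 as each array was left out, the 6 without wild-type replicate 2, against backgrounds of 3.96% to 8.96%. The count of lower members, 2 as reported, was 1 with the mean of all kept probes (background 2.65%). It ranged from 1 to 8 as each array was left out, the 8 without wild-type replicate 1, against backgrounds of 1.79% to 4.46%. Background shares were 8.96% higher and 4.46% lower without wild-type replicate 1, and 6.48% higher and 2.44% lower without wild-type replicate 2. Lower members numbered 3 with quantile normalization and with the authors' value table (Cryab, Dnaja4 and Dnajb13, backgrounds 4.19% and 4.37%), 3 with slide as a fixed block (Cryab, Dnaja4 and Dnajc24, background 3.36%) and 3 others on slide 1 alone (Dnajc18, Hspb8 and Hspbap1, background 4.17%). The cause was not tested. The members' median difference became -0.052 with slide as a fixed block and on slide 1 alone, where the median of all genes was 0.0090. Both of these set the null arrays against wild-type replicate 2 alone and so give the same differences. Under both the direction turned for Dnajb8 (-0.21), Hspb7 (-0.18), Hspb1 (-0.20), Hspd1 (-0.063), Hspe1 (-0.074) and Dnaja1 (-0.037). With the mean of all kept probes it turned for Hspa9 (0.0089) and Hsp90ab1 (0.0019). As each array was left out it turned for Hspb1 (-0.27 to 0.29), Hsp90ab1 (-0.19 to 0.045) and Dnajb1 (-0.32 to 0.0020).

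The replicate numbers did not pair the arrays, and not every array correlated best with the array of its own number. With the number as a replicate block, 1 member was higher (Hsph1) and 3 were lower (Cryab, Dnaja4 and Hspa1a) at an unadjusted limma p under 0.05, against backgrounds of 5.95% higher and 2.65% lower.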
